A study of Drosophila melanogaster with 6 samples.

Results

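The 48 genes described here encode microtubule motors and their close partners: kinesins, the kinesin light chain, the mitochondrial adaptor milt, the subunits of dynein and dynactin, and Lis-1. They were chosen by gene symbol from the 17471 genes with FlyBase identifiers in the count files, by a rule that uses no measured value. The choice was made with earlier results of these data known. Of the 49 current symbols that meet the naming rule, 48 had an identifier in the files, and Dhc1 was not analysed here. The libraries came from Drosophila melanogaster projection neurons of the anterodorsal lineage (adPNs), which carry odour information from the antennal lobe to higher brain centres, taken 36 to 40 h after puparium formation. There were 3 wild-type libraries and 3 from acj6 mutants, whose titles name the allele acj66. acj6 encodes a POU-domain transcription factor of this lineage, and the study's title sets the question of how it directs dendrite targeting. RNA was made into full-length cDNA libraries with a modified SMART-seq2 protocol. No source used here gives the sex of the flies, the number of cells, or whether the libraries came from separate animals. A p-value below therefore reflects only the scatter among the libraries, and that scatter may be technical.

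Motor proteins walk along microtubules using ATP. Most kinesins move toward microtubule plus ends, which in axons point to the terminals, and carry vesicle precursors and mitochondria outward; cytoplasmic dynein, with its partner complex dynactin, moves toward minus ends and returns endosomes and signals to the cell body. In fly dendrites, where microtubules are mostly oriented with minus ends outward, dynein also delivers dendritic cargo. Other kinesins serve cell division, and axonemal dyneins bend cilia and sperm tails, so that neurons without a motile cilium are not their usual place.

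The 6 libraries held 24467328 to 38279909 gene counts. Levels are given as CPM, the count scaled to a common library size after TMM normalization, which corrects for differences in library composition. At these depths 3 counts correspond to 0.0784 to 0.123 CPM before that scaling. acj6 itself was counted at 146, 143 and 158 CPM in the wild type and at 276, 248 and 228 CPM in the mutant, so every mutant library held more of its RNA (log2 fold change 0.75 ± 0.12, SE; adjusted p 0.0124 by edgeR). The neuronal and lineage markers elav, nSyb, Syt1, brp, C15, kn, ChAT and VAChT were all counted, with elav at 286 ± 21.6 CPM (SD, n = 3) in the wild type and 253 ± 20.7 CPM in the mutant; of these, brp and kn were called higher in the mutant. The 10 glial markers summed to 631 to 698 CPM in wild-type and 492 to 542 CPM in mutant libraries, most of it from nrv2 (432 ± 35.3 and 314 ± 7.597 CPM, the 1 glial marker called) and Gs2, while the glial fate gene repo was at 1.86 ± 1.11 and 1.57 ± 0.905 CPM. The hemocyte and fat body list summed to 4690 to 5188 CPM and 3885 to 5495 CPM, nearly all from Pxn, with He at 0 and Hml and NimC1 each under 1 CPM on average. Alignments that the counting program set aside as not unique came to 3.21 to 4.16 per gene count in the wild type and 2.189 to 2.95 in the mutant, so the groups did not overlap in this measure. Its part in the results was not tested.

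Of the 48 motor genes, 39 passed the filter on low counts and were tested with edgeR's quasi-likelihood test over all genes. In the acj6 mutant libraries the dynein intermediate chain gene sw, the kinesin-like gene cos and the low-abundance kinesin gene Klp59D were higher, and the dynein light chain gene ctp was lower. Adjusted p-values are Benjamini-Hochberg values over all 9229 genes tested, and a gene was called when its adjusted p was under 0.05. The background share of calls was 3.07% of genes higher and 1.33% lower, 4.4% in all. The motor genes held 3 higher and 1 lower call, or 7.69% and 2.56% of the 39 tested. Klp59D passed the filter through the mutant libraries alone, so its presence among the tested genes already required a difference. Fold changes pointed up for 20 motor genes and down for 19, and their median log2 fold change (mutant minus wild type) was 0.02, beside -0.01 for all genes tested. DESeq2 called 12 motor genes, in a setting that called 10.2% of all genes, and limma-voom 4, where it called 4.26%. In bulk libraries, fewer cells of a type and less RNA per cell cannot be told apart.

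**Figure D1:**
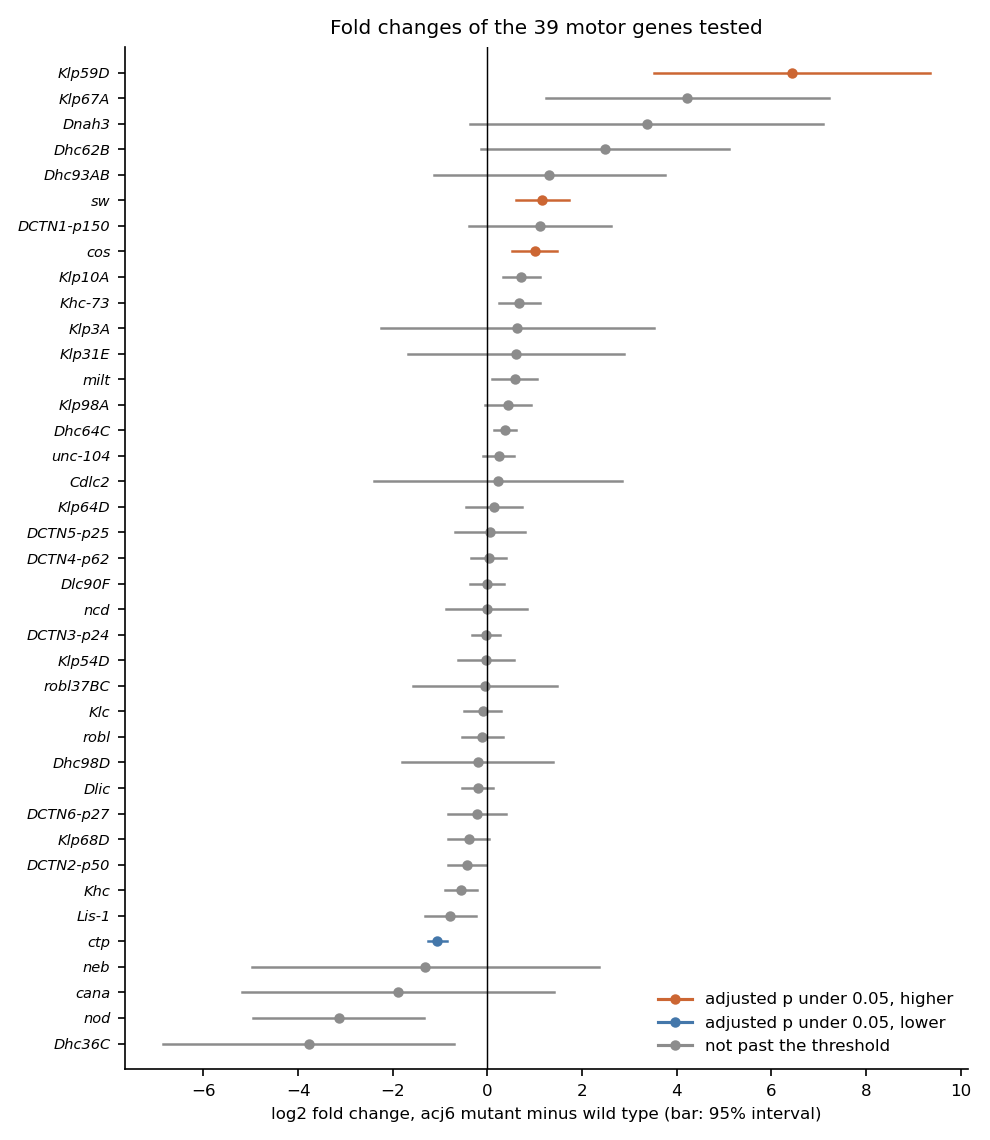
Log2 fold change of each of the 39 tested motor genes, acj6 mutant minus wild type, with the 95% interval from the edgeR fit as a bar. Klp59D (6.44), sw (1.16) and cos (1.0) were called higher and ctp (-1.06) lower; intervals are narrow for abundant genes and several log2 units wide for the low-abundance kinesins and axonemal dyneins.

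The longest transcripts were counted relatively higher in the mutant libraries. The median log2 fold change was 0.19 in the longest of 4 groups of tested genes of about equal size (median transcript length 4369.5 bases). In the other 3 it was -0.0087 (876.25 bases), -0.10 (1568 bases) and -0.05 (2446 bases), so it did not rise steadily with length. The median transcript of the tested motor genes had 2991 bases, while that of all tested genes had 1953.5, and 19 of the 39 fell in the longest group. For the more abundant motor genes, values with each library's length trend removed are given where they differ clearly. The cause of the trend was not tested.

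By count, 1 gene outweighed the other motor genes together. unc-104, the kinesin-3 motor that carries synaptic vesicle precursors and is the fly counterpart of KIF1A, was counted at 4884, 3817 and 3243 CPM in wild-type replicates 1 to 3 and at 4501, 5243 and 4315 CPM in mutant replicates 1 to 3. It took 53.1% to 59.6% of all motor gene counts in wild-type libraries and 62.2% to 65.3% in mutant libraries, and ranked 15 among the 9229 tested genes in each group. Its groups overlapped. The log2 fold change of 0.24 ± 0.14 (SE) did not pass the test (adjusted p 0.477), and with the length trend removed it was -0.03. The interval of its fold change, -0.09 to 0.56 on the log2 scale, covers no change as well as a rise. unc-104 shares exon sequence with CG42392, which was counted at 2.38 to 6.99 CPM.

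Levels are compared between genes per kilobase of transcript (the wild-type mean CPM divided by the median transcript length). On this scale ctp (585 ± 37.6 CPM per kilobase, SD, n = 3) and unc-104 (537 ± 112) were the highest of the motor genes and robl (275 ± 53.7) came next. The spreads of ctp and unc-104 overlapped. The dynein heavy chain gene Dhc64C, with a transcript of 14277 bases, stood at 14.3 ± 0.844 CPM per kilobase and the kinesin heavy chain gene Khc at 26.0 ± 2.06. Among the 21 motor genes above 20 CPM in every library, the adaptor gene milt had the lowest level per kilobase (5.82 ± 0.878), followed by sw (8.84 ± 1.25). Recovery along long transcripts can differ from that of short ones in full-length cDNA, so the order is a description of these counts.

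**Figure D2:**
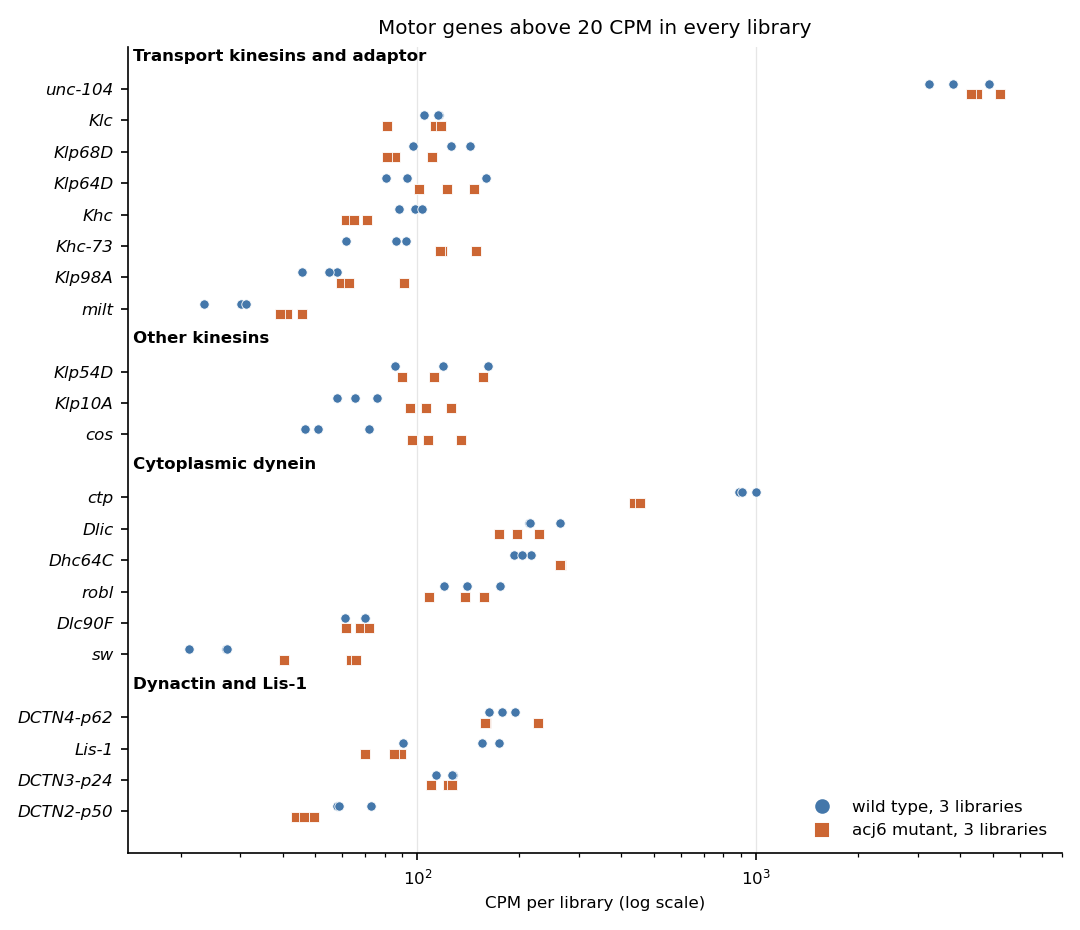
CPM in each of the 6 libraries (log scale) for the 21 motor genes above 20 CPM in every library, grouped by role; circles are wild-type and squares mutant libraries. unc-104 lies at 3243 to 5243 CPM, ctp separates into 892 to 1002 and 436 to 455 CPM, and the other genes lie well below these. Groups are also apart for several of the other genes, such as sw, cos, Klp10A and Khc-73, and overlap or are adjacent for the rest.

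Kinesin-1, the main long-distance motor of axons, was represented by its heavy chain gene Khc and its light chain gene Klc. Khc was counted at 98.4, 88.2 and 103 CPM in the wild type and at 61.6, 70.9 and 64.8 CPM in the mutant. Every mutant library lay below every wild-type library. The difference (log2 fold change -0.55 ± 0.15, adjusted p 0.0783) was short of the threshold. With the length trend removed it was -0.65 and the adjusted p 0.0495; the alternatives gave adjusted p-values between 0.0121 and 0.201. Klc stood at 116, 115.1 and 104.4 CPM in the wild type and 113, 118 and 81.5 CPM in the mutant, with overlapping groups and an interval of -0.49 to 0.28 on the log2 scale. Its log2 fold change, -0.10, was 0.0015 with the length trend removed. The ratio of Khc to Klc counts within a library was 0.766 to 0.988 in the wild type and 0.545 to 0.795 in the mutant, with mutant replicate 3 inside the wild-type range. Klc shares exon sequence with the opposite-strand gene CG32109, at 52.8 to 105 CPM, and without a stated strand setting reads of such a pair cannot be told apart.

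milt encodes the adaptor that links mitochondria to kinesin-1. It was counted at 30.1, 31.3 and 23.4 CPM in the wild type and at 41.1, 39.3 and 45.8 CPM in the mutant. The groups did not overlap, yet the gene did not pass the test (log2 fold change 0.57 ± 0.21, adjusted p 0.195), and the log2 fold change was 0.39 with the length trend removed. milt shares exon sequence with Caper, which was at 50.5 to 68.5 CPM across the libraries.

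Among the other kinesin-3 genes, Khc-73, whose mammalian counterpart KIF13B carries membrane cargo, was at 92.3, 61.6 and 86.7 CPM in the wild type and at 118, 149 and 117 CPM in the mutant. All mutant libraries lay above all wild-type ones (0.67 ± 0.19, adjusted p 0.0929), and removing the length trend left 0.40 (adjusted p 0.306). The lowest adjusted p among the alternatives was 0.0107, with DESeq2. Klp98A, which moves along with early endosomes, was at 57.9, 45.5 and 54.8 CPM in the wild type and 91.4, 59.5 and 62.9 CPM in the mutant. The lowest mutant library lay just above the highest wild-type library (0.43 ± 0.21, adjusted p 0.354), and the log2 fold change was 0.22 with the length trend removed. Within a library, Khc-73 had 0.699 to 0.938 counts per count of Khc in the wild type and 1.80 to 2.10 in the mutant. The order of these kinesin genes by count was thus turned in every mutant library. Khc-73 has the longer transcript (7131 against 3718 bases), and the ratio was chosen with the values known.

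Kinesin-2, a heterotrimer that moves vesicles and builds cilia, has the motor subunits encoded by Klp64D and Klp68D. Klp64D was at 160, 93.3 and 80.7 CPM in the wild type and 101, 147 and 122 CPM in the mutant. Klp68D was at 143, 125 and 97.1 CPM and at 86.1, 110 and 81.4 CPM. Neither was called (adjusted p 0.844 and 0.340), and in both the groups overlapped. Per kilobase the wild-type means of the pair, 44.0 ± 16.8 and 40.9 ± 7.81, differed by less than their spread. Klp64D had 0.744 to 1.116 counts per count of Klp68D in the wild type and 1.17 to 1.498 in the mutant. The gene for the third subunit, Kap3, which the naming rule does not take, was at 49.0 to 106 CPM and 72.1 to 165 CPM and was not called (adjusted p 0.479).

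Of the other kinesin genes with clear counts, cos was called. It encodes Costal-2, a kinesin-like scaffold of the Hedgehog pathway. It was counted at 71.9, 50.7 and 46.5 CPM in the wild type and at 107, 134 and 96.1 CPM in the mutant. Mutant libraries were all higher, by 2.0-fold in the fit (log2 fold change 1.0 ± 0.21, adjusted p 0.0355). The length trend removed left 0.84 with an adjusted p of 0.0487. Leaving out any 1 library other than wild-type replicate 1 ended the call, with adjusted p-values up to 0.130.

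Klp10A encodes a kinesin-13, a motor that shortens microtubules rather than carrying cargo. Its levels were 65.6, 75.9 and 57.7 CPM in the wild type and 106, 125 and 95.4 CPM in the mutant. The groups were apart, and the test fell just short (0.71 ± 0.17, adjusted p 0.0551). The adjusted p ranged from 0.00211 to 0.163 over the alternatives, which called Klp10A in 4 of 14, and the log2 fold change was 0.56 with the length trend removed. Klp54D, a kinesin-like gene, was at 86.1 to 161 CPM in the wild type and 89.9 to 156 CPM in the mutant, with no call (-0.03 ± 0.26).

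Of the motor genes, ctp had the lowest adjusted p. ctp, also called cut up, encodes the LC8-type light chain, a small dimer that also binds many proteins outside dynein. It was counted at 1002, 892 and 906 CPM in wild-type replicates 1 to 3 and at 455, 436 and 453 CPM in mutant replicates 1 to 3. The groups were far apart next to their spread, with means of 934 ± 60.0 and 448 ± 10.5 CPM. ctp fell by 1.06 on the log2 scale (SE 0.09, fold 0.480, adjusted p 0.00223). It was called in all 14 alternatives, with log2 fold changes from -1.09 to -0.95 and a highest adjusted p of 0.0130, and it was the 1 motor gene for which that held. Among all tested genes it ranked 434 by level in the mutant.

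Cdlc2 encodes a second LC8-type light chain, nearly identical in protein sequence to that of ctp. It was counted at 0.474, 0.426 and 0.397 CPM in the wild type and at 0.133, 1.07 and 0.324 CPM in the mutant, and was not called. Its whole count over the 6 libraries was 87, against 128747 for ctp. Reads that match both genes equally would have been set aside as not unique, so the level of each is uncertain to that extent.

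sw, short wing, encodes the dynein intermediate chain, which joins the heavy chain to dynactin and cargo. It was counted at 27.2, 21.2 and 27.5 CPM in the wild type and at 63.7, 66.0 and 40.2 CPM in the mutant. All mutant libraries were higher, with mutant replicate 3 closest to the wild type. sw rose 2.24-fold (log2 fold change 1.16 ± 0.25, adjusted p 0.0347), and the value was 1.16 with the length trend removed. The call was lost in each of the 5 leave-outs other than that of mutant replicate 3, with adjusted p-values from 0.0880 to 0.129. Genes of the Sdic family carry near-identical copies of sw sequence; Sdic1, Sdic3 and Sdic4 were listed at 0 in every library and Sdic2 averaged 0.0933 CPM in the wild type and 0 in the mutant. Reads shared with these copies would be missing from the count of sw.

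ctp and sw lie on the X chromosome, as do Klp10A and Dlic. The 1560 tested X-linked genes had a median log2 fold change of 0.01. The male dosage compensation RNA roX1 was at 1393 to 1654 CPM in wild-type and 2758 to 3315 CPM in mutant libraries, and roX2 at 449 to 572 and 430 to 540 CPM. edgeR called roX1 higher (log2 fold change 0.97 ± 0.098, adjusted p 0.00243) and did not call roX2 (-0.05 ± 0.13, adjusted p 0.906). The part of sex in the values of ctp and sw was not tested.

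Dhc64C, the cytoplasmic dynein heavy chain gene, holds the motor domain. It was at 193, 217 and 204 CPM in the wild type and at 265, 264 and 263 CPM in the mutant. The mutant libraries were higher and almost alike, with a log2 fold change of 0.37 ± 0.11 and an adjusted p of 0.0966. With the length trend removed the log2 fold change was 0.00 and the adjusted p 0.991, while DESeq2 gave 0.00964. Dhc64C shares exon sequence with CG18808, which was at 0.937 to 11.97 CPM.

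**Figure D3:**
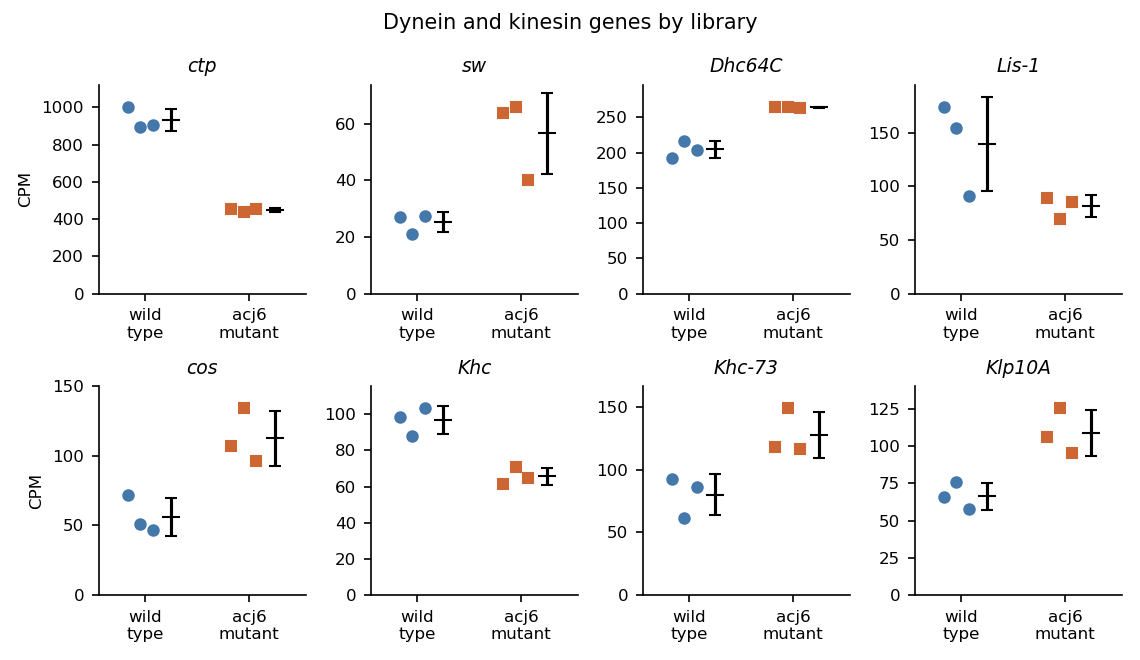
CPM in each library for 8 dynein and kinesin genes, with every axis starting at 0; points are libraries, and the bar beside them is the mean with its SD (n = 3). ctp falls from 934 to 448 CPM, sw and cos rise, and the groups of Dhc64C, Lis-1, Khc, Khc-73 and Klp10A do not overlap although these genes were not called.

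For the other dynein subunits the libraries of the groups overlapped. Dlic, the light intermediate chain gene, was at 263, 214 and 214 CPM in the wild type and at 197, 229 and 175 CPM in the mutant, with an interval of -0.53 to 0.12 on the log2 scale. robl, the roadblock light chain gene, was at 120, 140 and 176 CPM and at 157, 108 and 138 CPM (interval -0.54 to 0.32). Dlc90F, the Tctex-type light chain gene, was at 61.2, 70.0 and 70.1 CPM and at 61.6, 67.6 and 71.8 CPM (interval -0.36 to 0.35). None of the 3 intervals reaches the fold of ctp. Of the 7 cytoplasmic dynein genes, edgeR called 1 higher and 1 lower, beside 3.07% and 1.33% of all genes tested. Their median log2 fold change was 0.00.

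Counts set against Dhc64C within a library do not depend on the scaling between libraries. ctp had 4.11 to 5.20 counts per count of Dhc64C in the wild type and 1.65 to 1.72 in the mutant. sw had 0.0977 to 0.141 counts per count of Dhc64C in the wild type and 0.153 to 0.250 in the mutant. Neither ratio overlapped between the groups, so the light chain and intermediate chain genes moved apart from the heavy chain gene in opposite directions. The pairs were chosen with the values known and carry no test, and the ratio for ctp takes in the length trend, since its transcript of 1597 bases is much shorter than that of Dhc64C.

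**Figure D4:**
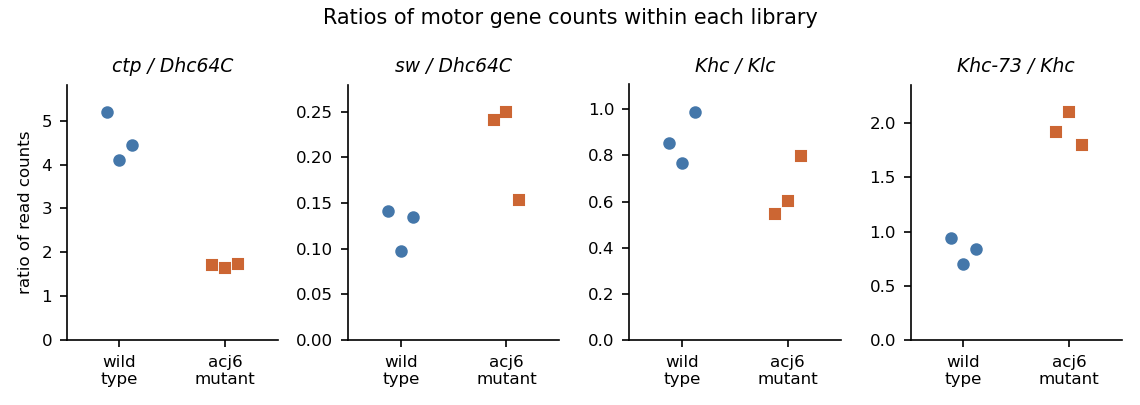
Ratios of read counts of 2 motor genes within each library, with axes starting at 0; circles are wild-type and squares mutant libraries. ctp to Dhc64C goes from 4.11 to 5.20 in the wild type down to 1.65 to 1.72 in the mutant, and Khc-73 to Khc from 0.699 to 0.938 up to 1.80 to 2.10.

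Lis-1 encodes the dynein regulator whose human counterpart is mutated in lissencephaly. It was at 174, 155 and 90.7 CPM in the wild type and at 89.2, 69.9 and 85.1 CPM in the mutant. Wild-type replicate 3 lay just above the highest mutant library, and the other 2 wild-type libraries lay far above. Lis-1 was not called (log2 fold change -0.78 ± 0.24, adjusted p 0.115). Without wild-type replicate 3 it was -1.02 (adjusted p 0.0335), and across the alternatives adjusted p-values lay between 0.0208 and 0.307.

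None of the 6 dynactin genes was called by edgeR, and limma-voom and DESeq2 called none of them either. DCTN2-p50, the dynamitin subunit, had an unadjusted p of 0.0349 (adjusted 0.247) and was the 1 dynactin gene under 0.05. It was at 57.7, 73.1 and 58.6 CPM in the wild type and at 43.8, 46.4 and 49.5 CPM in the mutant, with groups that did not overlap (-0.44 ± 0.18). DCTN1-p150, known as Glued, encodes the subunit that binds microtubules and dynein. It was much less counted, at 7.55, 5.57 and 6.98 CPM in the wild type and 24.05, 2.67 and 16.5 CPM in the mutant, whose libraries lay on both sides of the wild type. DCTN3-p24 and DCTN4-p62 lay between 109 and 226 CPM in all libraries, and DCTN5-p25 and DCTN6-p27 between 9.26 and 22.7 CPM. All 4 had log2 fold changes between -0.22 and 0.05.

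The list of 14 kinesins of mitosis and meiosis summed to 168 to 267 CPM in the wild type and 233 to 309 CPM in the mutant, most of it from Klp54D and Klp10A, described above. Others of the list were rarely counted. pav, which encodes the centralspindlin kinesin that drives cytokinesis and also restrains microtubule sliding in neurons, had 21 counts in all over the 6 libraries. Klp61F, the bipolar kinesin-5 of the spindle, had 12 counts, all in wild-type replicate 3. sub had 39 counts, all in mutant replicate 2, Klp59C had 7, and cmet, a CENP-E kinesin of the kinetochore, had 428, most of them in mutant replicate 1 (10.5 CPM). None of these 5 passed the filter on low counts. ncd, a minus-end-directed kinesin-14, was at 8.55 to 12.3 CPM in the wild type and 7.88 to 13.9 CPM in the mutant. It shares exon sequence with the opposite-strand genes ca, at 128 to 245 CPM, and CG7789, at 41.6 to 62.8 CPM.

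A few low-abundance kinesins differed widely between the groups. Klp59D, a kinesin-13, was at 0.0365, 0.284 and 0 CPM in the wild type and at 21.3, 5.45 and 3.73 CPM in the mutant. It was called (log2 fold change 6.44 ± 1.28, adjusted p 0.0292), with mutant replicate 1 far above the other mutant libraries. limma-voom gave an adjusted p of 0.204, and the adjusted p was 0.0601 to 0.117 without wild-type replicate 1 or 3 or mutant replicate 1 or 2. Klp67A, a kinesin-8 that limits spindle length, was at 0.912, 0.0852 and 0 CPM in the wild type and 5.87, 5.15 and 7.80 CPM in the mutant (4.23 ± 1.32, adjusted p 0.125). It was called in 2 of 13 alternatives, with DESeq2 (adjusted p 0.00337) and without wild-type replicate 1 (adjusted p 0.0385). The highest adjusted p of the alternatives was 0.296. nod, a chromokinesin of oocyte chromosome segregation, went the other way, from 25.7, 10.3 and 6.63 CPM to 0.451, 1.30 and 3.05 CPM (-3.15 ± 0.80, adjusted p 0.0660, lowest over the alternatives 7.14e-04 and highest 0.247). Its groups did not overlap. nod shares exon sequence with the opposite-strand gene pkm, which was under 1 CPM in 5 of the 6 libraries and at 10.7 CPM in mutant replicate 2.

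The 15 markers of dividing cells and progenitors summed to 57.5 to 74.6 CPM in the wild type and 51.3 to 62.9 CPM in the mutant, with overlapping ranges. None of the 10 tested was called by edgeR or limma-voom, and DESeq2 called 2, beside 10.2% of all genes tested. An unadjusted p under 0.05 was found for 2 of them and for 16.6% of all genes tested. The most abundant was CycB3, at 27.1 ± 4.35 and 29.6 ± 4.99 CPM. Among the neuroblast genes, wor was at 0 in every library and dpn at 0.287 ± 0.249 and 0.0801 ± 0.0534 CPM. mira reached 7.66 CPM in wild-type replicate 1 and 4.11 CPM in mutant replicate 1, and ase 4.83 CPM in mutant replicate 1, with at most 0.476 and 0.0729 CPM in the other libraries. insc was at 0 in every wild-type library and at 0.849, 0.468 and 0.972 CPM in the mutant, so it passed the filter through the mutant libraries alone. grh was at 1.02 ± 0.323 and 2.59 ± 1.06 CPM, higher in every mutant library. BubR1, at 4.38 ± 2.74 and 0.375 ± 0.161 CPM, and CycE, at 0.683 ± 0.589 and 0.156 ± 0.0652 CPM, were lower in every mutant library. Of the 10 tested markers, 3 fold changes pointed up and 7 down (median log2 fold change -0.81). The part of these cells in the values of the kinesins was not tested.

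Axonemal dynein heavy chain genes were low and varied from library to library. Dhc62B was at 9.26, 0.341 and 0.238 CPM in the wild type and at 15.8, 19.0 and 20.3 CPM in the mutant. All mutant libraries lay above wild-type replicate 1, which itself stood well above the other wild-type libraries. edgeR did not call it (2.49 ± 1.15, adjusted p 0.327), but leaving out wild-type replicate 1 gave 5.96 with an adjusted p of 0.00806, and limma-voom gave 0.0477. The highest adjusted p of its 14 alternatives was 0.501. Dhc62B shares exon sequence with the opposite-strand gene CG8001, which was at 17.5 to 32.0 CPM and was not called. Dhc36C was at 7.70, 2.87 and 0.119 CPM against 0.133, 0.368 and 0.270 CPM, and Dnah3 at 1.495, 0.114 and 0 against 0.292, 9.43 and 6.91 CPM. Both overlapped between groups and neither was called by edgeR or limma-voom, while DESeq2 called Dhc36C lower (adjusted p 0.0340). Dhc93AB and Dhc98D lay between 0.159 and 12.9 CPM, and Dhc16F had 6 counts in all.

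The 6 axonemal heavy chain genes summed to 9.48 to 21.6 CPM in the wild type and 26.5 to 36.2 CPM in the mutant. The ciliated sensory neuron markers summed to 16.6 to 19.2 CPM and 32.4 to 55.2 CPM, also without overlap, and the most abundant of them, the cilium regulator gene Rfx, was at 7.75 ± 0.246 and 17.1 ± 13.5 CPM. Of these 12 markers, nan, nompC, fd3F, nompB, Oseg2 and IFT54 stayed under 1 CPM on average in both groups and were not tested. nompB, at 0.543 ± 0.562 and 0.221 ± 0.360 CPM, and Oseg2, at 0.566 ± 0.644 and 0.157 ± 0.140 CPM, had lower means in the mutant. iav, which encodes a channel of chordotonal neurons, was at 0.411 ± 0.236 and 4.27 ± 3.62 CPM, and nompA at 0.210 ± 0.267 and 6.26 ± 10.4 CPM, most of it from mutant replicate 2. All 6 tested markers had fold changes above 0 (median log2 fold change 1.37). None was called by edgeR or limma-voom. An unadjusted p under 0.05 was found for 1, and DESeq2 called 1, beside 16.6% and 10.2% of all genes tested. Their part in the values of Dhc62B was not tested.

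**Figure D5:**
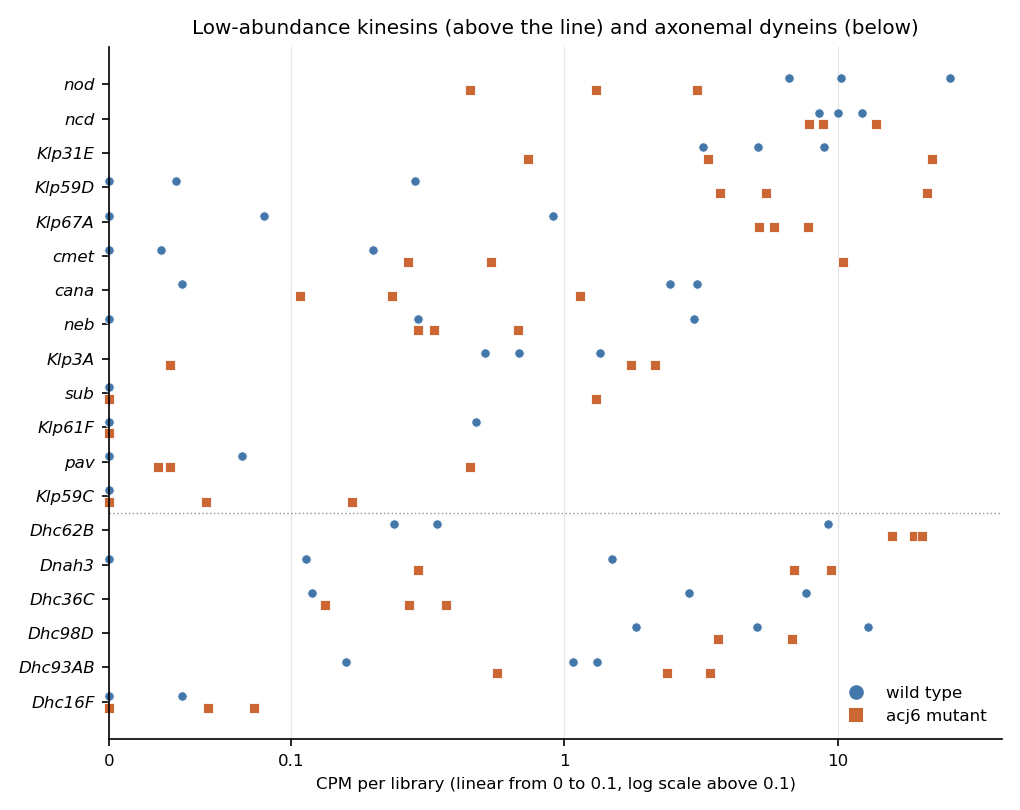
CPM in each library for low-abundance kinesin genes (above the dotted line) and axonemal dynein heavy chain genes (below), on an axis that is linear from 0 to 0.1 CPM and logarithmic above. Klp59D, Klp67A, Dhc62B and cmet have all mutant libraries (squares) to the right of all wild-type libraries (circles), and nod the reverse. cmet, which did not pass the filter on low counts, is under 1 CPM in every library but mutant replicate 1. Most other genes are mixed or near 0.

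The 3 relatives of robl listed at 1 CPM or less, robl22E, robl62A and robls54B, had 0, 46 and 0 counts, while robl37BC was at 2.10 to 3.49 CPM and 2.24 to 3.32 CPM. Of the remaining kinesins, Klp31E was at 3.21 to 8.94 CPM in the wild type and 0.735 to 22.2 CPM in the mutant, and Klp3A, cana and neb averaged under 2 CPM in both groups. None was called, and in each the groups overlapped.

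Counting groups that did not overlap, 10 of the 39 tested motor genes were higher in every mutant library and 5 were lower, against 11.7% and 11.5% of all tested genes. Of the 10, Klp59D was over the filter level in 0 wild-type and 3 mutant libraries, Klp67A in 1 and 3, and Dhc62B in 2 and 3. The rest of the 10 were over it in every library. The count is a description and carries no test.

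Of 23 genes in a list of motor adaptors and regulators, which hand cargo to these motors or control them, 22 were tested and edgeR called 0 higher and 0 lower. limma-voom called 0 and DESeq2 4, beside 4.26% and 10.2% of all genes tested. An unadjusted p under 0.05 was found for 7 of the 22, beside 16.6% of all genes tested. Their median log2 fold change was -0.15. The closest to the threshold were shot, a spectraplakin that joins actin and microtubules (346 ± 49.2 to 498 ± 47.2 CPM, adjusted p 0.0606), Rab6, a Golgi GTPase and the most abundant of the list (794 ± 31.0 to 612 ± 49.9 CPM, adjusted p 0.0669), and syd, the sunday driver adaptor of kinesin-1 and dynein (240 ± 89.8 to 509 ± 149 CPM, adjusted p 0.0719). shot has a transcript of 17788 bases. Its log2 fold change was 0.52 and lay between 0.13 and 0.65 over the alternatives, with adjusted p-values from 0.00239 to 0.611. For Rab6 the adjusted p-values of the alternatives ran from 0.0125 to 0.208, and for syd from 5.2e-04 to 0.205. The mitochondrial Miro, which binds milt, stood at 38.95 ± 4.58 CPM in the wild type and 30.2 ± 3.87 CPM in the mutant, with no call (-0.37, adjusted p 0.453).

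Of 16 further motor genes that the naming rule leaves out, 9 were tested and edgeR called none, with 3 under an unadjusted p of 0.05, 1 called by DESeq2 and 0 by limma-voom. Over all genes tested the last 3 shares were 16.6%, 10.2% and 4.26%. The most abundant was CG14535, at 346 ± 43.2 and 459 ± 84.5 CPM. Myosins, the actin-based motors, held 1 higher and 1 lower call by edgeR among 10 tested, beside 3.07% and 1.33% of all genes. DESeq2 called 3 and limma-voom 1 of the 10, beside 10.2% and 4.26% of all genes. Myo81F fell from 87.1 ± 9.23 to 42.6 ± 7.38 CPM (-1.03 ± 0.19, adjusted p 0.0204). Myo10A rose from 0.284 ± 0.143 to 13.2 ± 12.45 CPM (5.50 ± 1.19, adjusted p 0.0375), with mutant libraries at 25.6, 0.735 and 13.2 CPM, and it shares exon sequence with the opposite-strand gene C901. It was called in 5 of 13 alternatives and Myo81F, the most abundant myosin tested, in 9 of 14.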

How the data were processed

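For each library the authors deposited raw read counts by gene, in whole numbers and not normalized. HTSeq 0.11.2, STAR 2.5.4 and bcl2fastq 2.19.0.316 are the tools listed per the submitters' processing notes; the genome build, annotation release and strand setting were not given in the sources used here. Of 17575 entries per file, 96 spike-ins, 3 transgenes and 5 summary entries were left out before scaling and testing (the entry for reads in no gene was 8.59% to 10.9% of gene counts). Symbols matched 17242 of 17471 identifiers. Transcript lengths (median over transcripts), arms and exon overlaps came from Ensembl 115 models of the BDGP6 assembly.

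Genes were filtered with filterByExpr (10 counts at the median depth, 15 in all), scaled with TMM and tested with edgeR 4.0.16 (R 4.3.3) on genotype over all 6 libraries, two-sided. Intervals are 95%. The script was tested on simulated data. Alternatives were DESeq2 1.42.0, limma-voom 3.58.1, other scalings and filters, removal of each library's length trend, a replicate block and each library left out. Amplified reads are not independent molecules, so 3-count floors cover counting error only. Values in every library are given for called motor genes and a fixed set of 21, except pav and Klp61F. Those genes of the set did not pass the filter on low counts and are given by their summed counts. Further genes were chosen with their values seen. The members and lists were chosen with earlier results of these data known.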

Additional observations from a re-analysis of the deposited data

How the results depend on the processing

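Of 14 alternatives, each changed 1 choice, except that DESeq2 brings its own scaling as well as its own test. The motor genes held 3 higher and 1 lower call, against 5 and 3 with no filter on low counts, 7 and 5 with DESeq2, and 2 lower with the stricter filter and with the length trend removed. Leaving out 1 library gave 0 to 3 higher and 1 to 2 lower motor genes. Over all genes, 283 higher and 123 lower became 627 and 313 with DESeq2, and 109 to 188 and 34 to 64 in the leave-outs. The adaptors and regulators went from 0 higher to 1 with DESeq2 size factors, 2 with no filter, 2 with the stricter filter and 3 with DESeq2, which also called 1 lower, and to 0 to 2 higher and 0 lower in the leave-outs. The median log2 fold change of the motor genes, 0.02, was -0.013 with upper-quartile scaling, 0.20 with no filter, which tests more low genes, and 0.032 to 0.23 in the leave-outs. No called motor gene changed direction. Of the 39 tested, 16 did in at least 1 alternative, all not called. Among the 20 with a test and values in every library these were Klc (0.0015 with the length trend removed, -0.20 to 0.054 in the leave-outs), unc-104 (-0.035 with the length trend removed), Klp64D (-0.041 to 0.51 in the leave-outs), robl (up to 0.052 in the leave-outs) and Cdlc2 (-0.33 with limma-voom, -0.91 to 0.68 in the leave-outs). Beside those given, the cause of these shifts was not tested.

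Same-numbered libraries correlated at 0.0163, 0.00151 and 0.0475 in their deviations from group means, which gave no sign that the replicate numbers pair the libraries. Low correlations over all genes cannot settle it, and the library titles do not say. With the replicate block the calls over all genes were 215 higher and 78 lower, the motor genes held 2 higher and 1 lower, sw had an adjusted p of 0.0727 and Cdlc2 a log2 fold change of -0.23. Depth limits the genes under about 0.305 CPM, the level of the filter, where differences were not detectable.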
